A study of Homo sapiens with 6 samples.

Results

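TGF-beta and activin are secreted signals of the TGF-beta superfamily, and the genes described here encode their ligand chains and receptors. The set was chosen by gene symbol, with earlier results of these data known, and holds 10 genes of the 42656 rows of the deposited count table. They are the TGF-beta ligands TGFB1, TGFB2 and TGFB3, the activin subunits INHBA and INHBB, the TGF-beta receptors TGFBR1, TGFBR2 and TGFBR3, and the activin receptors ACVR1B and ACVR2A. All 10 symbols were found, and 9 had enough counts to be tested.

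The series measured mRNA in TOV21G, an established human line of ovarian clear cell carcinoma, by sequencing of 6 libraries. Cells of the control group (shCtrl, 3 libraries) received a scrambled hairpin by lentivirus, and cells of the other group (shMEX3A, 3 libraries) a hairpin against MEX3A, a gene for an RNA-binding protein. Both groups grew in medium with 15% serum, received virus (multiplicity of infection 50), and RNA was taken on day 3. The comparison asks how expression differs when MEX3A is depleted, with 1 hairpin per arm in 1 cell line, so effects of the hairpin other than on MEX3A cannot be told apart from it. Nothing in the labels ties the 3 libraries of a group to separate cultures, so the p-values reflect library-to-library spread that may be technical.

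TGF-beta is made as a precursor that is cut by furin-like proteases and then held in a latent complex until it is released. Active TGF-beta or activin joins a type II receptor, which phosphorylates a type I receptor, and this kinase phosphorylates SMAD2 and SMAD3. Activin A is a dimer of the INHBA product and activin B of the INHBB product. In epithelial and carcinoma cells the pathway is known for control of growth, matrix production and changes of cell shape.

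The libraries held 34662635 to 48228216 counts. Levels below are given as CPM, the count divided by the library total after TMM scaling, which is set so that most genes do not move, so a shift of the whole mRNA pool is invisible. MEX3A was at 68.8, 70.7 and 67.6 CPM in the shCtrl libraries and at 19.6, 21.0 and 22.2 CPM in the shMEX3A libraries, so the targeted gene was lower in each of them (log2 fold change -1.72, SE 0.046). Over all 15679 tested genes, 69.7% passed an adjusted p of 0.05 by edgeR's quasi-likelihood test. Of the tested genes 34.0% were higher and 35.6% lower in shMEX3A, and the median log2 fold change was -0.01. Most genes were thus called, against the premise of the scaling, which also helps to set this median. Of the epithelial and clear cell markers, PAX8 was at 192 CPM in shCtrl, though NAPSA was at 0.415 CPM. All 6 leukocyte markers and all 5 endothelial markers stayed under 1 CPM in every library, with CD3E, KDR and CLDN5 at 0. Of the endothelial markers CDH5 was called higher, from a mean of 0.0424 CPM in shCtrl to 0.432 CPM in shMEX3A (log2 fold change 3.29). It passed the filter on low counts through its shMEX3A libraries alone.

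INHBA rose more than any other member, and 5 further members rose by small amounts, while TGFB2 and TGFB3 fell. In all, 6 of the 10 members rose (34.0% of all tested genes did), 2 fell (35.6% of all tested genes did), ACVR2A did not pass the test and INHBB was too sparse to be tested. In each of the 9 tested members the ranges of the groups did not overlap, which held for 72.3% of all tested genes. TGFB2 passed the filter on low counts through its shCtrl libraries alone, so its difference is not independent of that filter. Because the libraries are bulk RNA, a change in the level per cell and a change in the share of cells that express a gene cannot be told apart.

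**Figure D1:**
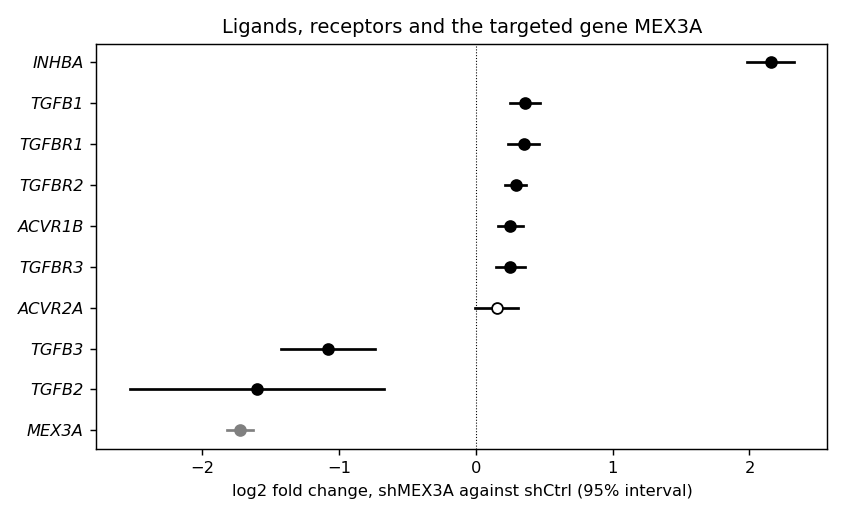
Log2 fold change of shMEX3A against shCtrl for the 9 tested ligand and receptor genes and for MEX3A (grey), with 95% intervals from the edgeR fit. Filled points passed an adjusted p of 0.05 and the open point (ACVR2A) did not, with INHBA alone at 2.16 and 6 genes between 0.15 and 0.36.

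The ligand genes moved apart from one another. INHBA encodes the beta A subunit shared by activin A and inhibin A. Its levels were 3.96, 3.53 and 4.34 CPM in shCtrl and 18.4, 16.8 and 17.8 CPM in shMEX3A, from 125 to 174 and from 602 to 791 counts per library. Every shMEX3A library stood far above every shCtrl library, with a gap much wider than the spread within either group. The difference was 4.46-fold (2.16 on the log2 scale, SE 0.084, adjusted p = 2.39e-23 by edgeR), and in size of rise INHBA ranked 113 among the 15679 tested genes. INHBA occupies bases 41667168 to 41705834 of chromosome 7, minus strand (GRCh38, GENCODE 29), and no other gene has exons over its exon bases. Its antisense neighbour INHBA-AS1 had 1, 3 and 0 counts in shCtrl and 9, 2 and 7 in shMEX3A, too few to be tested.

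INHBB, the subunit of activin B, was close to absent from the counts. It had 0, 3 and 0 counts in shCtrl and 2, 0 and 0 in shMEX3A. A count of 0 in a library allows up to about 3 counts (a one-sided 95% limit), which is 0.0637 to 0.0885 CPM at these depths, and this covers counting error only. Both groups are at or under that limit, so no fold is given. With no filter on low counts the log2 fold change was -0.58 with an SE of 1.59 (adjusted p = 0.795 by edgeR), which leaves even its direction unresolved. Of the activin beta A and beta B messages, the data therefore hold counts of any depth for INHBA alone.

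TGFB1, the most abundant TGF-beta ligand here, rose slightly. It was at 229, 221 and 202 CPM in shCtrl and at 263, 279 and 293 CPM in shMEX3A, so the groups were apart but close. The difference was 1.28-fold (0.36 on the log2 scale, SE 0.049, adjusted p = 4.88e-05 by edgeR), near the middle of all tested genes in size, at the 50.6 percentile of absolute fold changes. With offsets for GC content and transcript length, in a fit on 13801 genes, it was 0.21, still called. TGFB1 has the highest GC content of the members, 63.5% in its longest transcript. It occupies bases 41301587 to 41353911 of chromosome 19, minus strand, and 6.64% of its exon bases lie under exons of HNRNPUL1.

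TGFB3, a ligand known from palate and epithelial development, fell. Its levels were 3.29, 3.10 and 2.84 CPM in shCtrl against 1.501, 1.76 and 1.03 CPM in shMEX3A, or 110 to 144 against 35 to 83 counts. The shMEX3A libraries were lower throughout and more scattered, with a coefficient of variation of 25.8% against 7.33% in shCtrl. The fall was 2.11-fold (-1.08 on the log2 scale, SE 0.17, adjusted p = 6.04e-07 by edgeR). It occupies bases 75958099 to 75982991 of chromosome 14, minus strand, and 3.32% of its exon bases lie under TGFB3-AS1.

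TGFB2 was measured from very few reads in every library. It had 17, 14 and 14 counts in shCtrl and 4, 7 and 4 counts in shMEX3A, which is 0.389, 0.395 and 0.349 CPM against 0.0969, 0.149 and 0.118 CPM. The highest shMEX3A library lay below the lowest shCtrl library, but the exact two-sided 95% Poisson intervals of single libraries overlap between the groups. That of shCtrl replicate 3 ran from 0.191 to 0.586 CPM and that of shMEX3A replicate 2 from 0.0598 to 0.306 CPM. Summed over libraries the counts were 45 and 15, and the level in shMEX3A was 0.325 of that in shCtrl (exact conditional 95% interval 0.168 to 0.594, counting error only).

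The scatter of TGFB2 within an arm did not exceed counting error. Its chi-square per degree of freedom among libraries was 0.0643 in shCtrl and 0.244 in shMEX3A, where counting error alone gives values around 1. The coefficient of variation was 6.58% in shCtrl and 21.5% in shMEX3A. In the fit the fall had the widest interval of the tested members (-1.60 on the log2 scale, 95% interval -2.53 to -0.67, adjusted p = 0.00231 by edgeR). With no filter on low counts the call held (log2 fold change -1.61, adjusted p = 0.00758), and a filter of at least 1 CPM left the gene untested.

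Exons of TGFB2 overlap those of a neighbour. TGFB2 occupies bases 218346235 to 218444619 of chromosome 1, plus strand, and 26.6% of its exon bases lie under exons of TGFB2-OT1. Both TGFB2-OT1 and the antisense gene TGFB2-AS1 had 0 counts in all 6 libraries, so no read in the shared bases was counted for TGFB2-OT1. Whether reads in the shared bases were counted for TGFB2 or left out is not given in the sources used here.

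**Figure D2:**
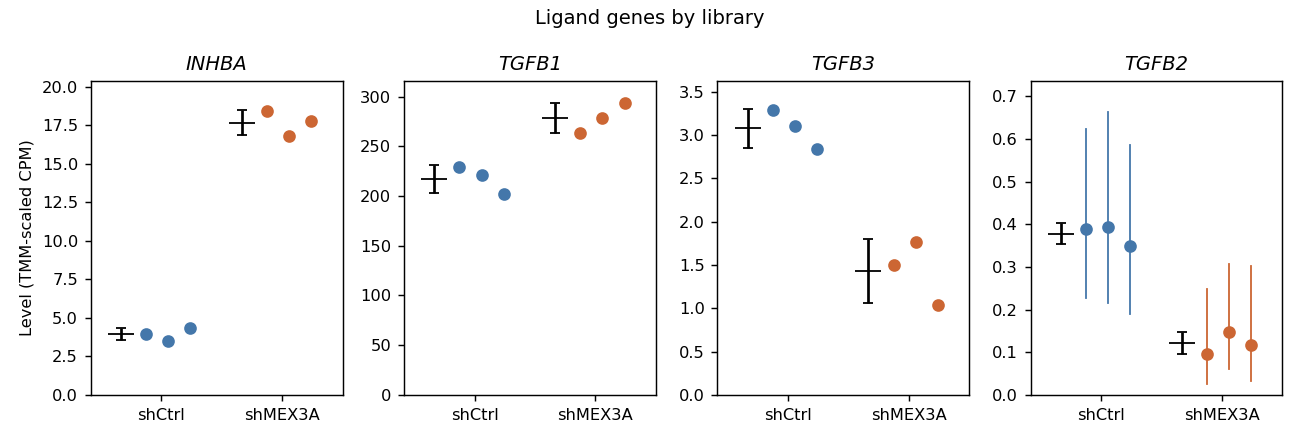
TMM-scaled CPM of 4 ligand genes in each library, on axes that start at 0; blue points are shCtrl and orange points shMEX3A libraries, and black marks give the mean and SD of 3 libraries. Lines through the TGFB2 points are exact 95% Poisson intervals, which reach across the groups although the points do not.

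Short promoter stretches are shown for the 3 ligand genes with the largest changes and for TGFB1 and TGFBR2, which rose slightly, so that the letters can be read beside the values. RefSeq (GRCh38.p14) gave windows of 250 bases before to 50 after a gene's start for all 10 members, 20 windows in all and 1 to 8 for each. The TATA motif TATAAA was found, on either strand, in 3 of the 20 windows (15.0%, beside 11.5% of 35116 windows of all genes), those of INHBA, TGFB2 and TGFB3. The GC box GGGCGG was found, on either strand, in 9 of the 20 (45.0%, the same as the 45.0% of all windows), which belong to TGFB1, INHBB, TGFBR1, TGFBR2, TGFBR3 and ACVR1B. Both shares are at or near those of all windows. The motifs were chosen with the fold changes known. Each line below gives 30 bases, 5′ to 3′ on the gene's strand, with the motif in capitals.
INHBA, 11 bases before the start, chr7:41703091-41703120, minus strand: gtacaaataagtagtacagTATAAAacttc
TGFB2, 29 bases before the start, chr1:218345295-218345324, plus strand: tcagagagaactTATAAAtctcccctcccc
TGFB3, 30 bases before the start, chr14:75982008-75982037, minus strand: atgggagggaggTATAAAatttcagcagag
TGFB1, 39 bases before the start, chr19:41353944-41353973, minus strand: gggtggggccggGGGCGGcttcaaaacccc
TGFBR2, 80 bases before the start, chr3:30606509-30606538, plus strand: gagaaggctctcGGGCGGagagaggtcctg

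The TATAAA of INHBA lies closer to the annotated start than those of TGFB2 and TGFB3. Starts are those of RefSeq, and the TATAAA windows of INHBA and TGFB3 lie inside the GENCODE spans given above. That of TGFB2 lies wholly before the GENCODE start of the gene. The stretch shown for TGFBR2 lies just inside the GENCODE span of that gene. The E-box CACGTG was found in 3 of the 20 windows (15.0%, beside 7.26% of all windows), which belong to TGFB2, TGFB3 and ACVR1B. In TGFB3 the window with CACGTG is not the one with TATAAA, and the starts of these windows differ. These matches describe letters in the windows and not bound sites.

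Of the 5 receptor genes 4 rose, each by a small amount, and ACVR2A did not pass the test. Of all tested genes 34.0% rose. In size the 4 rises lay between the 38.0 percentile (TGFBR3) and the 49.8 percentile (TGFBR1) of absolute fold changes. TGFBR2 encodes the type II receptor that binds TGF-beta. It was at 64.6, 66.3 and 64.7 CPM in shCtrl and at 82.4, 79.8 and 77.0 CPM in shMEX3A, a 1.22-fold difference (0.29 on the log2 scale, SE 0.037, adjusted p = 8.30e-09 by edgeR). Within each arm its libraries lay within a few CPM of each other. TGFBR1, the type I kinase ALK5, rose from 26.2, 28.2 and 30.6 CPM to 38.5, 34.1 and 35.8 CPM. Its log2 fold change was 0.35 (SE 0.055, adjusted p = 1.78e-06), and the lowest shMEX3A library lay a little above the highest shCtrl library.

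TGFBR3, or betaglycan, is a coreceptor that presents TGF-beta to the type II receptor and also binds inhibin. It was at 23.5, 23.8 and 24.2 CPM in shCtrl and at 28.4, 27.3 and 29.4 CPM in shMEX3A, with a log2 fold change of 0.25 (SE 0.052). ACVR1B, the activin type I kinase ALK4, was at 45.4, 51.3 and 46.2 CPM in shCtrl and at 59.0, 56.4 and 54.6 CPM in shMEX3A, with a log2 fold change of 0.25 (SE 0.044). Both passed, with adjusted p values of 5.91e-05 and 5.59e-06 by edgeR. With offsets for GC content and length, fitted on 13801 genes, the value of ACVR1B was 0.15, still called, and that of TGFBR1 was 0.46. On the same 13801 genes without offsets ACVR1B was at 0.28.

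ACVR2A encodes a type II receptor for activin. Its levels were 9.77, 8.77 and 10.2 CPM in shCtrl and 10.8, 10.5 and 10.7 CPM in shMEX3A. The shMEX3A libraries lay just above the shCtrl libraries, and the 95% interval of the log2 fold change ran from -0.00357 to 0.31 around 0.15 (adjusted p = 0.0763 by edgeR). It passed with offsets for GC content and length (0.27, adjusted p = 0.00154), with a filter of at least 1 CPM (0.17, adjusted p = 0.0488) and without shCtrl replicate 3 (0.19, adjusted p = 0.0493). Without shCtrl replicate 2, the shCtrl library with the lowest level, it was 0.10 (adjusted p = 0.302).

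Among the 5 receptors and TGFB1, the 95% intervals of the log2 fold changes overlapped in 15 of 15 pairs in the fit without offsets. With GC and length offsets the values lay further apart, at 0.15 for ACVR1B and 0.46 for TGFBR1, and overlap was not counted there. Differences between these genes were not tested. TGFBR1 occupies bases 99104038 to 99154192 of chromosome 9 and TGFBR2 bases 30606502 to 30694142 of chromosome 3, both on the plus strand. TGFBR3 occupies bases 91680343 to 91906335 of chromosome 1, minus strand. ACVR1B occupies bases 51951667 to 51997078 of chromosome 12 and ACVR2A bases 147844517 to 147930826 of chromosome 2, both on the plus strand. INHBB occupies bases 120346143 to 120351808 of chromosome 2, plus strand. None of the exon bases of TGFBR1, TGFBR2, TGFBR3 or ACVR1B lie under another gene, and 7.98% of those of ACVR2A do, under ORC4 and AC009480.1.

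Levels were set side by side per length, as CPM per kb of exons in GENCODE 29, which may differ from the annotation used for counting. In shCtrl the order was TGFB1 (67.1 ± 4.304, SD, n = 3), TGFBR2 (13.9 ± 0.203), ACVR1B (8.37 ± 0.563), TGFBR1 (4.14 ± 0.322) and TGFBR3 (2.74 ± 0.0433). It went on with ACVR2A (1.41 ± 0.105), TGFB3 (0.627 ± 0.046), INHBA (0.475 ± 0.049), TGFB2 (0.0733 ± 0.00482) and INHBB. The ranges of neighbours in this order did not overlap in either group. In shMEX3A the first 5 places were unchanged, and INHBA, at 2.13 ± 0.0975 CPM per kb, took the sixth place above ACVR2A (1.57 ± 0.0281). TGFB3, at 0.291 ± 0.0752, and TGFB2, at 0.0235 ± 0.00505, stood below ACVR2A. With coding length in place of exon length, INHBA stood above TGFB3 in shCtrl already, and above TGFBR3 in shMEX3A.

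**Figure D3:**
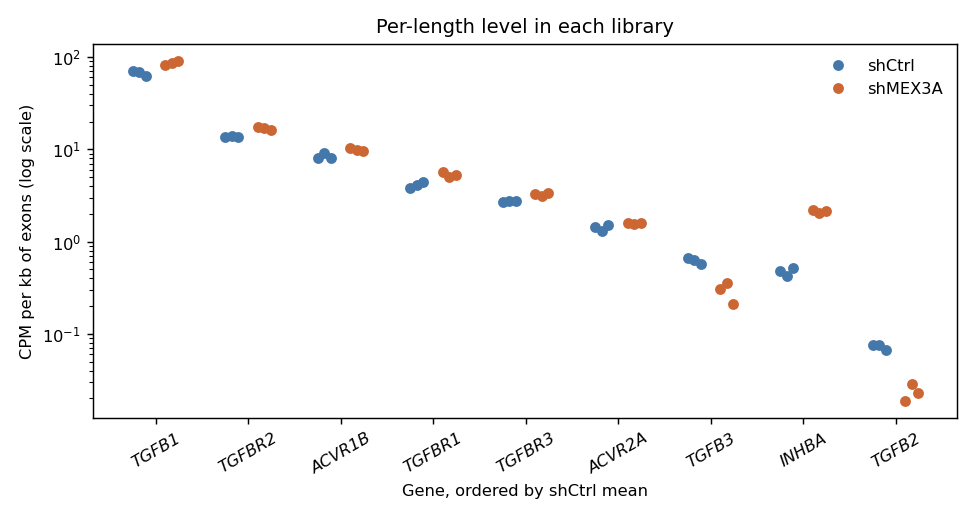
CPM per kb of exons (log axis) in each library for 9 members, ordered by their shCtrl mean; blue points are shCtrl and orange points shMEX3A. INHBA rises past ACVR2A to 2.13 CPM per kb, while TGFB3 and TGFB2 drop; INHBB, with at most 3 counts in a library, is not drawn.

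The TGF-beta ligand message was nearly all TGFB1 in both groups. Per length, TGFB1 made up 98.96%, 98.97% and 98.97% of the sum of the 3 ligands in shCtrl, and 99.60%, 99.55% and 99.74% in shMEX3A. TGFB3 made up 0.924% ± 0.0114 in shCtrl and 0.340% ± 0.0962 in shMEX3A (SD, n = 3), and TGFB2 made up 0.108% ± 0.00292 and 0.0272% ± 0.00545. For each of these shares the groups did not overlap, and the two-sided exact permutation p was 0.1, the smallest that 3 libraries against 3 can give (0.167 after Benjamini-Hochberg adjustment over 5 shares).

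Neither the activin subunit share nor the receptor share parted the groups. INHBA made up 98.05% ± 3.38 of the 2 activin subunits in shCtrl and 99.8% ± 0.391 in shMEX3A (exact permutation p = 1), a share that turns on the 3 INHBB counts of shCtrl replicate 2. Without that library the difference between the groups was -0.226 percentage points instead of 1.73. TGFBR2 made up 77.0% ± 1.39 of TGFBR1 plus TGFBR2 in shCtrl and 76.3% ± 0.9001 in shMEX3A, with overlapping ranges (exact permutation p = 0.6, adjusted over the 5 shares 0.75). The difference of -0.746 percentage points was -0.161 without shCtrl replicate 1 and -1.52 without shCtrl replicate 3.

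The genes whose pattern over the 6 libraries lay closest to INHBA were NCEH1, SLC16A3 and KRT80. The measure was the Euclidean distance between log2 CPM values, each gene centred on its own mean, over 10037 genes with a mean of at least 3 log2 CPM, and the distances were 0.149, 0.254 and 0.280. Their log2 fold changes were 2.14, 2.11 and 2.10 beside 2.16 for INHBA. For TGFB2 the closest were THG1L (0.194), LIN52 (0.208) and ERCC6L (0.222), with log2 fold changes of -1.34, -1.20 and -1.26. The 6 points of every gene share the same 2 groups, so the distances describe these libraries, and the log2 CPM of TGFB2 is drawn toward its mean by the prior count of 2.

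Other genes of the pathway were counted from lists that were written with earlier results of these data known. The share of each list's tested genes is given beside its count, to be read against the 34.0% that rose and 35.6% that fell of all tested genes. Of 22 genes for latency and activation of ligands, 21 were tested, of which 12 rose (57.1%) and 5 fell (23.8%). Their median log2 fold change was 0.21, beside -0.01 over all tested genes. With offsets for GC content and length 9 rose and 4 fell, beside 12 and 5 on the same genes without offsets. FURIN, a protease that cuts the precursors, rose by 1.11 on the log2 scale (SE 0.034), from 82.6 ± 2.31 CPM in shCtrl to 178 ± 4.11 CPM in shMEX3A. LTBP4, a latent TGF-beta binding protein, rose from 97.8 ± 2.11 to 181 ± 6.62 CPM (log2 fold change 0.89). With those offsets the rises were smaller, 0.87 for FURIN and 0.64 for LTBP4, beside 1.13 and 0.91 on the same genes without offsets. ITGB8, a subunit of an integrin that releases latent TGF-beta, fell by 1.02 on the log2 scale, to a mean of 49.6 CPM from 101 CPM, and THBS1, a matrix protein that can activate it, fell by 0.52 on the log2 scale. LRRC32, which holds latent TGF-beta at the cell surface, rose from 0.655 to 5.41 CPM (log2 fold change 3.06), and it was picked out after its values were seen.

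Of 12 antagonists and decoys in the table only 6 were tested, of which 4 rose (66.7%) and 2 fell (33.3%; median 0.34). BAMBI, a pseudoreceptor that blocks type I receptors, fell by 1.65 on the log2 scale (SE 0.048), from 55.2 ± 1.353 CPM in shCtrl to 17.6 ± 0.655 CPM in shMEX3A, and VASN, a membrane protein that binds TGF-beta, changed by -0.76. The proteoglycans DCN and FMOD, which bind TGF-beta, rose by 0.90 and 0.43. DCN is also on the list of fibroblast markers, whose summed level was 5.99 to 6.54 CPM in shCtrl and 9.83 to 12.5 CPM in shMEX3A. Most of that sum is DCN itself, and the other 7 markers summed to 1.247 to 1.47 CPM in shCtrl and 1.53 to 2.49 CPM in shMEX3A. Of the 8 markers 6 stayed under 1 CPM in every library and none was at 0 in all, and their part in the rise of DCN was not tested. FST, the activin-binding follistatin, and INHA, the alpha subunit of inhibin, were at 0.0572 and 0.112 CPM in shCtrl and were not tested.

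Among 7 other activin-like ligands 2 were tested and both fell, INHBE by 0.33 and GDF11 by 0.32 on the log2 scale. Of 9 other receptors of the superfamily 7 were tested, of which 5 rose (71.4%) and 1 fell (14.3%; median 0.42). ACVR2B, the other type II activin receptor, rose by 1.29 on the log2 scale (SE 0.039), from 35.8 ± 0.989 CPM in shCtrl to 87.5 ± 1.87 CPM in shMEX3A, beside 0.15 for ACVR2A. BMPR2 rose by 0.42 and BMPR1A fell by 0.44, both being receptors for bone morphogenetic proteins.

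Of 15 genes of receptor turnover and trafficking 14 were tested, of which 10 rose (71.4%) and 2 fell (14.3%; median 0.17). PMEPA1, which limits TGF-beta signalling, had a log2 fold change of 2.63 and SMURF1, a ubiquitin ligase for the receptors, one of 0.58. DAB2, an endocytic adaptor, changed by -0.21 and ZFYVE9, which brings SMADs to the receptor, by -0.10. The call of ZFYVE9 (adjusted p = 0.041 by edgeR) was lost in 10 of 15 alternatives, among them those without shCtrl replicate 2 (0.1996), shCtrl replicate 3 (0.0804) or shMEX3A replicate 3 (0.201). All 8 genes of the list of SMADs and corepressors were tested, of which 3 rose (37.5%, near the share of all tested genes) and 1 fell (12.5%; median 0.08). SMAD2, a substrate of the type I kinases, rose from 108 ± 3.67 to 203 ± 1.27 CPM (log2 fold change 0.91). The corepressor SKI rose by 0.95 (by 0.70 with GC and length offsets). The corepressor TGIF1 fell by 0.39 (by 0.18 with GC and length offsets). SMAD3, named here outside the rule for named genes, had a log2 fold change of -0.04 and did not pass, though with those offsets it did, at -0.10 (adjusted p = 0.000628).

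Genes that TGF-beta is known to induce were mostly higher in shMEX3A. Of 33 listed, 29 were tested, of which 23 rose (79.3%), 1 fell (3.4%) and 5 did not pass. The median of the 29 was 0.81. The 5 were SKIL, BHLHE40, SNAI1, MMP2 and PDGFB, named here outside the rule for named genes. The list was written with the rises of several of its genes already known, so the count is a description of them. COL1A1, a chain of type I collagen, had a log2 fold change of 3.16, and PMEPA1 is on this list too. IL11 passed the filter on low counts through its shMEX3A libraries alone. The gene that fell was THBS1, which the list of ligand activation also holds. LTBP2 and MMP2 are on that list as well, and SMAD7 and SKIL are also on the list of SMADs and corepressors.

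**Figure D4:**
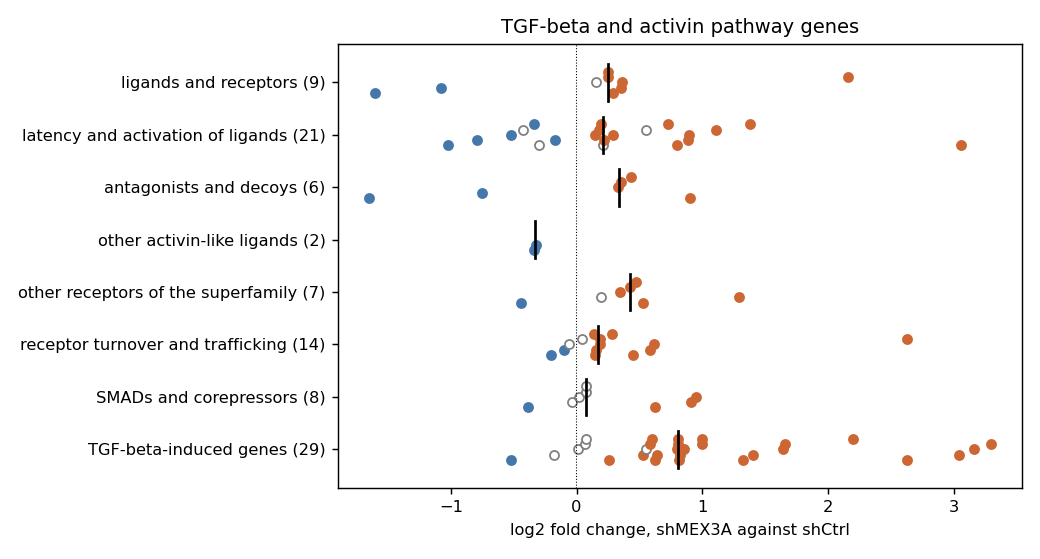
Log2 fold change of shMEX3A against shCtrl for each tested gene of the ligand and receptor set and of 7 pathway lists, with the number tested in brackets; orange points rose, blue points fell and open points did not pass an adjusted p of 0.05. Vertical bars are list medians, the dotted line is the median of all tested genes (-0.01), and the list of TGF-beta-induced genes has its median at 0.81.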

How the data were processed

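The authors deposited raw read counts, 1 row per gene and 1 column per library, all whole numbers. GRCh38 and the tools HTSeq 2.0.4, STAR, fastp 0.20.0 and edgeR 4.0.16 are named, without roles, per the submitters' processing notes. Annotation release and strand setting of the counting: not given in the sources used here. Therefore reads of overlapping or antisense genes cannot be told apart.

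Testing used edgeR 4.0.16 under R 4.3.3 (filterByExpr, TMM, robust quasi-likelihood fit, 4 residual degrees of freedom, no covariates) over 15679 genes. Benjamini-Hochberg adjustment ran over the whole table, and an adjusted p of 0.05 was the threshold. The filter asked for at least 0.247 CPM, or about 10 counts, in 3 libraries. The SE comes from the F statistic. Lengths, positions and GC content came from GENCODE 29, and promoter windows from RefSeq. Libraries of an arm differed by more than sampling noise (chi-square per degree of freedom 2.69 to 6.15, on genes where a pair had 20 counts or more). Each was therefore counted as its own library. That excess does not show that the libraries came from separate cultures. The fit was tested on simulated data with known changes.

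Named genes are the members, MEX3A, the 2 called genes with the smallest p in each direction of each pathway list, and the 3 genes closest in pattern to the called members with the largest rise (INHBA) and fall (TGFB2). Members, lists and tests were chosen with earlier results of these data known. Alternatives were upper-quartile factors or DESeq2 size factors, no filter or one at 1 CPM in 3 libraries, limma 3.58.1 (voom), DESeq2 1.42.0, a replicate block, offsets from splines of GC content and length (5 degrees of freedom each), coding length, and each library left out in turn.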

Additional observations from a re-analysis of the deposited data

How the results depend on the processing

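Every alternative kept the direction of MEX3A and of the 9 tested members wherever they were tested. ACVR2A alone gained a call: at 0.17 with a filter of at least 1 CPM, at 0.27 with GC and length offsets, at 0.18 (adjusted p = 0.0394) on those 13801 genes without offsets, an alternative added after seeing the data, and at 0.19 without shCtrl replicate 3. The filter of at least 1 CPM left 1 member lower, since TGFB2 was then not tested. With coding length the difference in share moved to 0.947 percentage points for TGFB1, -0.113 for TGFB2 and -0.834 for TGFB3. With 1 library left out INHBA ranged from 2.09 to 2.22, TGFB1 from 0.30 to 0.40, TGFB2 from -1.79 to -1.46, TGFB3 from -1.26 to -0.91 and ACVR2A from 0.10 to 0.19. The other 30 named genes gave 450 values under the alternatives, of which 439 had the same call as reported and 0 had the opposite sign; the 10 lost calls were those of ZFYVE9 and the 1 gained call that of SMAD3. Replicate numbers did not pair the arms (correlations of deviations -0.0309, 0.0772 and -0.0769; the best match carried the same number for 2 of 6 libraries). Under the replicate block 10751 genes were called, and no member changed its call (6 rose, 2 fell), with TGFB2 at -1.62 (adjusted p = 0.00507). Depth limits TGFB2 and INHBB most. In the list of SMADs and corepressors 5 genes rose, in place of 3, under the 1 CPM filter and on the 13801 genes, with or without offsets.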
